A study of Mus musculus with 2 samples.

Results

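The enzymes that oxidise, hydrolyse and conjugate foreign chemicals and reactive aldehydes were examined in S100A4+ cells sorted from the lungs of mice. Members were all genes on the array whose symbol begins with Cyp1, Cyp2, Cyp3, Cyp4, Gst, Aldh, Fmo, Ugt1, Ugt2, Sult1, Ephx, Akr1 or Ces before a digit or a letter and digit, with Cyp2f2 left out. This gave 163 genes read by 227 probes, of 16590 named genes on the array. Taken letter by letter, the prefixes also hold 13 P450 genes of higher family number, such as Cyp27a1, which are described on their own.

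The metastatic-lung cells were sorted by fluorescence from BALB/c mice that carried an S100A4-GFP transgene and bore tumours of 4T1, a mammary carcinoma line of mice that spreads to the lung. The normal-lung cells were sorted in the same way from BALB/c mice with the same transgene, for which no tumour is named. GFP in these mice marks any cell in which the S100A4 promoter is active, which in lung takes in fibroblasts and many leukocytes. With 1 array for each group, differences have no replicate check and no p-value is given, and an effect of the array cannot be told apart from one of the condition. The sources used here give neither the age nor the number of the animals, nor whether their RNA was pooled.

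Most of these enzymes work in sequence. Cytochrome P450s and flavin monooxygenases insert oxygen into fat-soluble molecules, epoxide hydrolases and carboxylesterases split epoxides and esters, and aldehyde dehydrogenases and aldo-keto reductases oxidise or reduce carbonyl groups. Glutathione transferases, UDP-glucuronosyltransferases and sulfotransferases then attach a water-soluble group. In lung these enzymes are best known from club cells and alveolar epithelium, and several have other substrates made in the body: retinal, oxygenated fatty acids, sterols and products of lipid peroxidation.

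A gene was called detected where the detection p of its probe, the rank of its signal among an array's negative controls, was below 0.01. By this measure 48 of the 163 genes (29.4%) were detected on at least 1 array, against 49.0% of all genes on the array. Of the 48, 32 were detected on both arrays, 3 on the metastatic-lung array only and 13 on the normal-lung array only, and 115 were detected on neither. The array as a whole had 10510 detected probes of 25697 in metastatic-lung cells and 10946 in normal-lung cells, with median signals of 66.1 and 72.2 in that order of groups. Signals are given as deposited, without background correction, and each ratio sets metastatic lung over normal lung, as log2, after background correction and normalization. A probe's signal depends on its sequence, so that signals are compared between arrays and never between genes.

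Among the detected enzyme genes, the measured ratio was at least 2-fold lower in metastatic-lung cells for 16 and at least 2-fold higher for 1. The lower genes came from 7 classes. Both detected flavin monooxygenases (Fmo1 and Fmo2), the xenobiotic-induced P450 Cyp1a1, the epoxide hydrolase Ephx1, the retinal dehydrogenases Aldh1a1 and Aldh1a2, the glutathione transferases Gstm2, Gsta3 and Gstt3, the carboxylesterases Ces1d and Ces2g and the sulfotransferase Sult1a1 were among the lower genes. The higher gene was the glucuronosyltransferase Ugt1a10. The 16 lower genes are 33.3% of the 48 detected, against a background of 10.2% of all detected genes, and the 1 higher gene is 2.08%, against a background of 5.89%.

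A gene detected on the normal-lung array only passed the detection filter through the group where it is high, so that these shares partly follow from the filter. In the 32 genes detected on both arrays, 8 (25%) were at least 2-fold lower, against 7.02% of all such genes, and 1 was at least 2-fold higher, against 5.07%. Their median log2 ratio was -0.27, against 0.05 for all 6904 genes detected on both arrays, and 23 of the 32 (71.9%) had a ratio below 0, against 46.0% of all such genes. For a gene detected on 1 array, the ratio is known only as a bound, and the fold is written as "at least", with the dim array raised to its lowest detected value or the gene's own value. Bounds depend on the processing. In the authors' processed values, to which 16 was added here before log2, they were smaller for each of the 8 lower genes detected on 1 array. With such genes counted at their bounds, 13 of the 48 detected enzyme genes were at least 2-fold lower, against 8.16% of all detected genes. At least 2-fold higher was 1 of the 48, against 5.09%. Over all 163 genes, most of them at background, the median was -0.037, against 0.01 over all genes on the array.

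**Figure D1:**
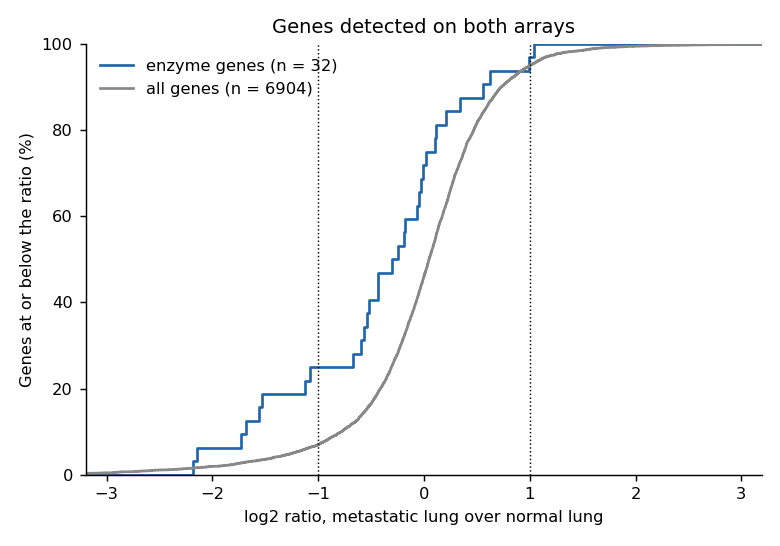
Cumulative share of genes (percent, vertical axis) at or below each log2 ratio of metastatic over normal lung (horizontal axis), for the 32 enzyme genes and all 6904 genes detected on both arrays. Dotted lines mark 2-fold, and the enzyme curve lies to the left of the curve of all genes over most of the range, with 25% against 7.02% at or below the lower line.

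The only measure of technical error here is the spread between probes of 1 gene. In 1177 genes, exactly 2 probes were detected on each of the arrays, and the SD of a probe's log2 ratio within such a gene was 0.26, which covers neither the animals, the sort nor the amplification of the RNA. Of the 17 genes past 2-fold, 13 had a single probe. In bulk RNA of sorted cells, fewer cells of a type and less RNA per cell cannot be told apart.

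**Figure D2:**
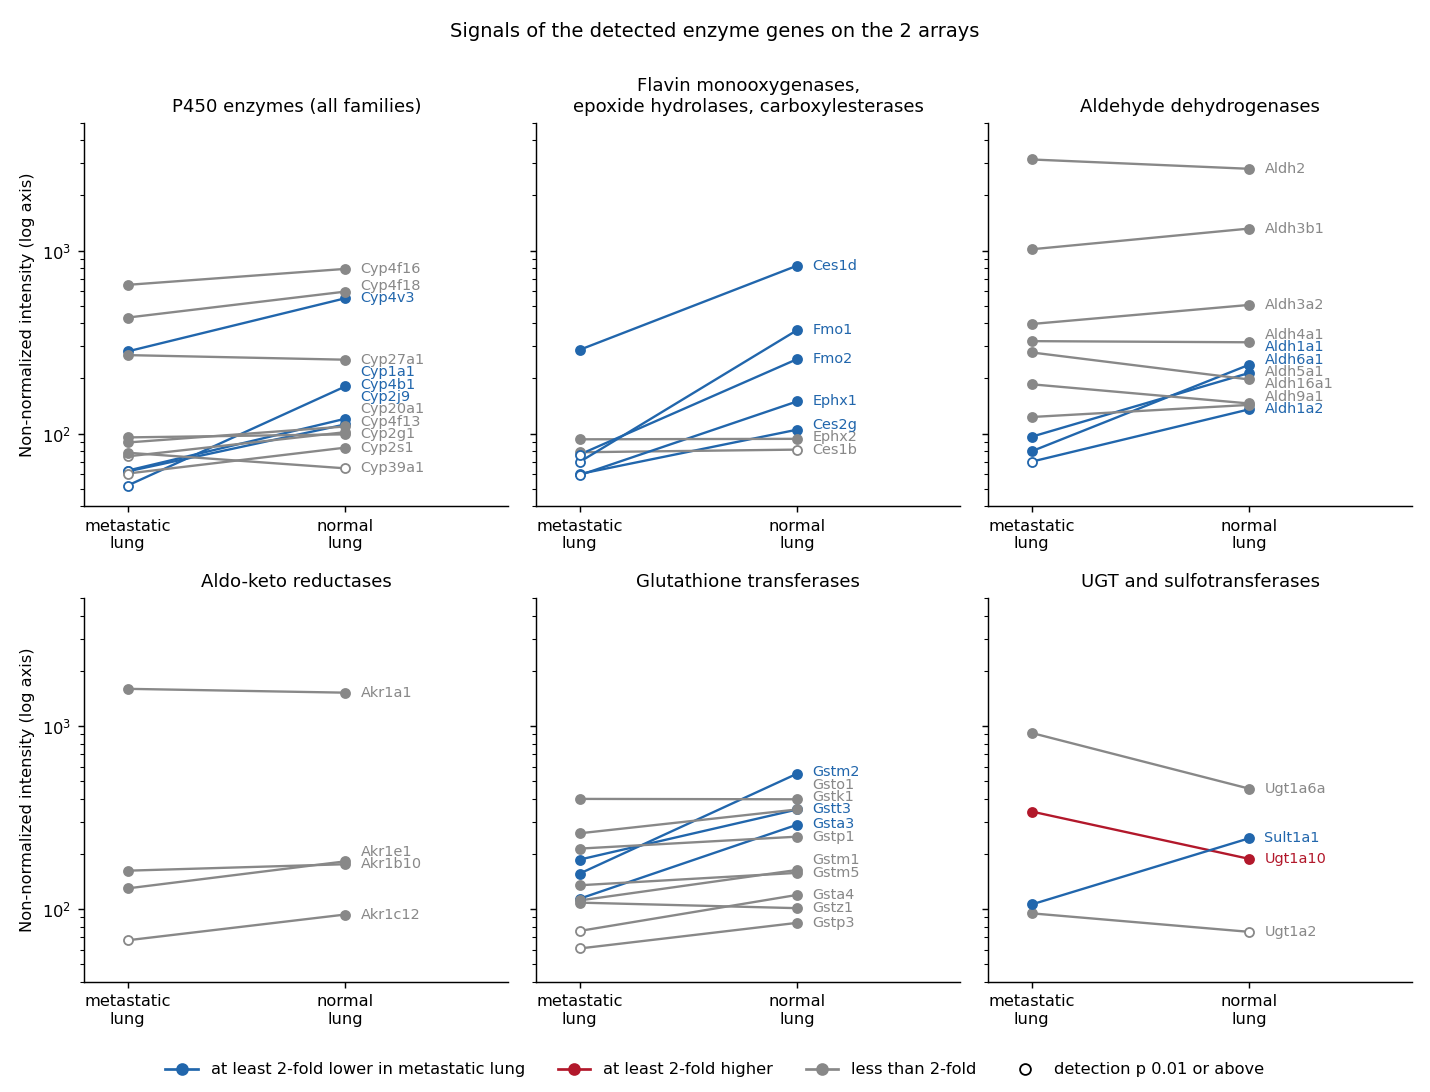
Deposited signal (log axis) of the 48 detected enzyme genes on the metastatic-lung array (left) and the normal-lung array (right), by class. Blue lines are genes at least 2-fold lower in metastatic-lung cells, red is Ugt1a10, grey lines are the others, and open circles mark a detection p of 0.01 or above: 13 genes have an open circle on the metastatic-lung side and 3 on the normal-lung side.

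The P450 enzymes of families 1 to 4 hold most of the drug-oxidising activity of the body, and few of them were detected. Of 57 such genes on the array, 9 were detected. Of the 9, 4 were at least 2-fold lower and none at least 2-fold higher in metastatic-lung cells, against 10.2% and 5.89% of all detected genes. In normal lung only, 5 of the 9 were detected, so that this count partly follows from the filter. Both arrays detected 4 of the 9, of which 1 was at least 2-fold lower, against 7.02% of all such genes. Counted at their bounds, 2 of the 9 were at least 2-fold lower, against 8.16% of all detected genes. Of the families best known from liver, none of the 10 Cyp2c, 8 Cyp2d and 6 Cyp3a genes was detected on either array. Cyp2d22 and Cyp3a13 came nearest, with detection p-values in normal-lung cells of 0.0125 and 0.0338. Cyp1a1, which oxidises polycyclic aromatic hydrocarbons and is switched on by the aryl hydrocarbon receptor, had a signal of 52.0 in metastatic-lung cells, with a detection p of 0.615, and of 181 in normal-lung cells. It was thus at background on the metastatic-lung array and clear of it on the other, and at least 3.32-fold lower in metastatic-lung cells. In the authors' processed values with 16 added this bound was 1.79-fold, and with an offset of 50 the measured log2 ratio was -1.63, against -2.70 here.

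The promoter of Cyp1a1 is shown because this gene is the textbook target of the aryl hydrocarbon receptor, whose binding element has the core GCGTG. It is the RefSeq window of GRCm38.p6 at chr9:57697363-57697662, plus strand, from 250 bases before to 50 bases after the gene's start, with the core in capitals, 54 bases before the start.
Cyp1a1: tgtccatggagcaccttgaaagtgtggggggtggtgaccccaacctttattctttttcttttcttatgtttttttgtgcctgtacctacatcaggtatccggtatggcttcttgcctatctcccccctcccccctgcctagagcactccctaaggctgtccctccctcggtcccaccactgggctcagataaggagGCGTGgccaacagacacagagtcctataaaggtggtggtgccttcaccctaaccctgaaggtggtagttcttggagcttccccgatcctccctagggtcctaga
On both strands, this core stands in a window of 35.2% of all genes that have one, of 14 of the 41 such detected enzyme genes (34.1%) and of 5 of the 14 such lower genes (35.7%). The Cyp1a1 window holds no match to TNGCGTG, a longer form of the receptor element. Any site more than 250 bases before the start lies outside this window and was not looked for. A match describes the letters and is not a binding site.

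The other lower P450 genes act mainly on fatty acids. Cyp4v3, the mouse counterpart of a fatty acid omega-hydroxylase of the retina in humans, was detected on both arrays, with signals of 281 in metastatic-lung cells and 548 in normal-lung cells. Its log2 ratio was -1.12, a 2.18-fold lower value. Cyp4b1, a lung P450 that activates plant furans into toxic products, had 62.7 in metastatic-lung cells and 120 in normal-lung cells and was at least 1.85-fold lower. Cyp2j9, of a subfamily that makes epoxides of arachidonic acid, had 62.0 in metastatic-lung cells and 112 in normal-lung cells and was at least 1.66-fold lower. The last pair were at background on the metastatic-lung array, and their bounds are under 2-fold.

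The Cyp4f enzymes inactivate leukotriene B4 and related lipids. Cyp4f18, known for this in mouse neutrophils, had 430 in metastatic-lung cells and 596 in normal-lung cells (log2 ratio -0.59), and a further probe had 120 and 140 in the same order (-0.18). Cyp4f16 had 649 in metastatic-lung cells and 794 in normal-lung cells (-0.43), with a further probe at -0.53. Cyp4f13 had 75 in metastatic-lung cells and 102 in normal-lung cells and was detected in normal lung only. None of the 3 reached 2-fold, and because Cyp4f genes resemble each other closely, how their probes divide the transcripts is uncertain. Cyp2g1, a P450 of the olfactory mucosa, had 95.2 in metastatic-lung cells and 98.9 in normal-lung cells (0.11). Cyp2s1, an epithelial P450, had 60.4 in metastatic-lung cells and 83.7 in normal-lung cells, detected in normal lung only and too dim there for a fold.

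Of the 13 P450 genes of higher family number, 3 were detected and none differed 2-fold. Cyp27a1, the mitochondrial sterol 27-hydroxylase, had 268 in metastatic-lung cells and 253 in normal-lung cells (log2 ratio 0.10), and its other probes gave -0.00 and 0.15. All 3 probes thus differed by less than the spread between probes. Cyp20a1, a P450 without an established substrate, had 89.3 in metastatic-lung cells and 109 in normal-lung cells (-0.30). Cyp39a1, an oxysterol 7-alpha-hydroxylase, had 78.5 in metastatic-lung cells and 64.5 in normal-lung cells, was detected in metastatic lung only, and had a bound of 1.10-fold higher.

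Flavin monooxygenases oxygenate the nitrogen and sulphur of drugs and amines. Of 5 genes on the array, Fmo1 and Fmo2 were detected, both in normal lung only, while Fmo4, Fmo5 and Fmo9 were detected on neither array. Fmo1 had a signal of 69.9 in metastatic-lung cells (detection p 0.0276) and 368 in normal-lung cells, and was at least 8.08-fold lower. Fmo2, the main flavin monooxygenase of lung in most mammals, had 76.7 in metastatic-lung cells and 255 in normal-lung cells and was at least 5.22-fold lower. Both were far above background in normal-lung cells and missed the detection threshold in metastatic-lung cells, Fmo2 by a narrow margin. Fmo1 and Fmo2 are neighbours in the genome with no protein-coding gene between them. Their bounds shrank to 3.43-fold and 2.44-fold in the authors' processed values with 16 added, in which a constant also remains in the signals.

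Of the 3 epoxide hydrolase genes, Ephx1 and Ephx2 were detected and Ephx4 was not. Ephx1, the microsomal enzyme that hydrolyses epoxides made by P450s from foreign compounds, had 59.2 in metastatic-lung cells and 150 in normal-lung cells and was at least 2.56-fold lower. Its bound in the authors' processed values with 16 added was 1.52-fold, under the 2-fold line. With an offset of 50 its measured log2 ratio was -1.26, against -2.12 here. Ephx2, the soluble enzyme that hydrolyses epoxides of fatty acids, had 92.9 in metastatic-lung cells and 93.5 in normal-lung cells (log2 ratio 0.21). The Ephx2 ratio is smaller than the spread between probes.

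Carboxylesterases cleave esters and amides of drugs and lipids, and 3 of 13 genes were detected. Ces1d, also known as a triacylglycerol hydrolase, had 287 in metastatic-lung cells and 827 in normal-lung cells. Both arrays detected it, and its log2 ratio was -1.73, a 3.31-fold lower value. Ces2g had 60.1 in metastatic-lung cells and 105 in normal-lung cells and was at least 1.47-fold lower, and its further probe, with 56.9 and 98.5 in the same order, also was detected in normal lung only. Ces1b, separated from Ces1d by 1 protein-coding gene, had 79.0 in metastatic-lung cells and 81.7 in normal-lung cells. It was detected in metastatic lung only, with a bound of 1.11-fold higher. Its detection p-values of 0.00752 and 0.0113, in the same order, lay close on either side of the threshold. The Ces1b log2 ratio of 0.17 was smaller than the spread between probes. The Ces1 genes are close copies in a row, and cross-reading between their probes was not tested.

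Aldehyde dehydrogenases turn aldehydes into acids, among them retinal into retinoic acid, and 10 of 20 genes were detected, 9 on both arrays. Of the 10, 3 were at least 2-fold lower and none at least 2-fold higher, against 10.2% and 5.89% of all detected genes. The median log2 ratio of the 10 was -0.31, against 0.01 for all detected genes. Of the 9 detected on both arrays, 2 were at least 2-fold lower, against 7.02% of all such genes. The median of the 9 was -0.18, against 0.05 for all such genes. Aldh1a1, a retinal dehydrogenase, had 80.0 in metastatic-lung cells and 238 in normal-lung cells, with a log2 ratio of -2.18 (4.54-fold lower). Its metastatic-lung signal was just past the detection threshold, with a detection p of 0.00627. Aldh1a2, the retinal dehydrogenase of embryonic tissues and of mesothelium, had 70.2 in metastatic-lung cells and 136 in normal-lung cells and was at least 2.21-fold lower. A further Aldh1a2 probe had 58.3 in metastatic-lung cells and 106 in normal-lung cells, detected in normal lung only as well. The same class holds Aldh1a3, the remaining retinal dehydrogenase, which was detected on neither array.

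The promoter of Aldh1a2 is shown because it holds matches both to the aryl hydrocarbon receptor core and to the core TGACNNNGC of the antioxidant element, which is bound by the transcription factor encoded by Nfe2l2. The promoter of Gsta3 is shown beside it, since glutathione transferases of the alpha class are the textbook genes of that element. The windows are RefSeq's, GRCm38.p6, plus strand, at chr9:71215539-71215838 for Aldh1a2 and chr1:21240335-21240634 for Gsta3. Capitals mark GCGTG 128 bases and TGACNNNGC 112 bases before the start of Aldh1a2, and TGACNNNGC 121 bases before the start of Gsta3.
Aldh1a2: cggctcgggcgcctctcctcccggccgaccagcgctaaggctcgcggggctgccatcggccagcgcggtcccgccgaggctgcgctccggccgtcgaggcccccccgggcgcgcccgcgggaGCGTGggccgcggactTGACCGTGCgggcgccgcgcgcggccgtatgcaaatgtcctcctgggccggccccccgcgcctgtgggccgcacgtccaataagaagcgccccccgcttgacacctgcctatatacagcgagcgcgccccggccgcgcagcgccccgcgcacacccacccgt
Gsta3: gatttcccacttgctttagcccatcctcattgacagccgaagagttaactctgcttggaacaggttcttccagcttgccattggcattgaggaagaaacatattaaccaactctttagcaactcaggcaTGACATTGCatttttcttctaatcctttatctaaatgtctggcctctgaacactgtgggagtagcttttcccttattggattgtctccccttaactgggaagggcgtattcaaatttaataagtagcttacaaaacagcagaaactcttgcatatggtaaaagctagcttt
On both strands, TGACNNNGC stands in a window of 14.0% of all genes that have one, of 5 of the 41 such detected enzyme genes (12.2%) and of 2 of the 14 such lower genes (14.3%). The longer receptor element TNGCGTG, which contains the shorter core, stands in 5.84% of all such genes, in 2 of the 41 and in 0 of the 14.

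Aldh6a1, which acts in the breakdown of valine and pyrimidines, had 96.0 in metastatic-lung cells and 214 in normal-lung cells, a log2 ratio of -1.53 (2.89-fold lower). The other detected aldehyde dehydrogenases were closer to equal. Aldh2, the mitochondrial enzyme that clears acetaldehyde, had 3145 in metastatic-lung cells and 2797 in normal-lung cells (0.02), and Aldh4a1, of proline breakdown, had 320 and 315 in the same order (-0.01). Aldh3b1, which acts on aldehydes from lipid peroxidation, had 1016 in metastatic-lung cells and 1318 in normal-lung cells (-0.53), with further probes at -0.59 and, for the dimmest of the 3, 0.18. Aldh3a2, the fatty aldehyde dehydrogenase, had 397 in metastatic-lung cells and 504 in normal-lung cells (-0.44). Aldh9a1, of carnitine synthesis, had a log2 ratio of -0.18, while Aldh16a1 stood at 0.56 and Aldh5a1, which degrades the transmitter GABA, at 0.63. The class thus ran from 4.54-fold lower for Aldh1a1 to 1.54-fold higher for Aldh5a1.

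Aldo-keto reductases reduce aldehydes and ketones to alcohols, and 4 of 12 genes were detected, none of them past 2-fold. Akr1a1, the aldehyde reductase, had 1595 in metastatic-lung cells and 1520 in normal-lung cells (log2 ratio -0.05), and its other probes gave -0.07 and -0.18. Akr1b10 had 162 in metastatic-lung cells and 176 in normal-lung cells (-0.07). Akr1e1, which reduces anhydrofructose, had 129 in metastatic-lung cells and 182 in normal-lung cells (-0.57). Akr1c12 had 67.4 in metastatic-lung cells and 93.2 in normal-lung cells, was detected in normal lung only and had a bound of 1.18-fold lower.

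**Figure D3:**
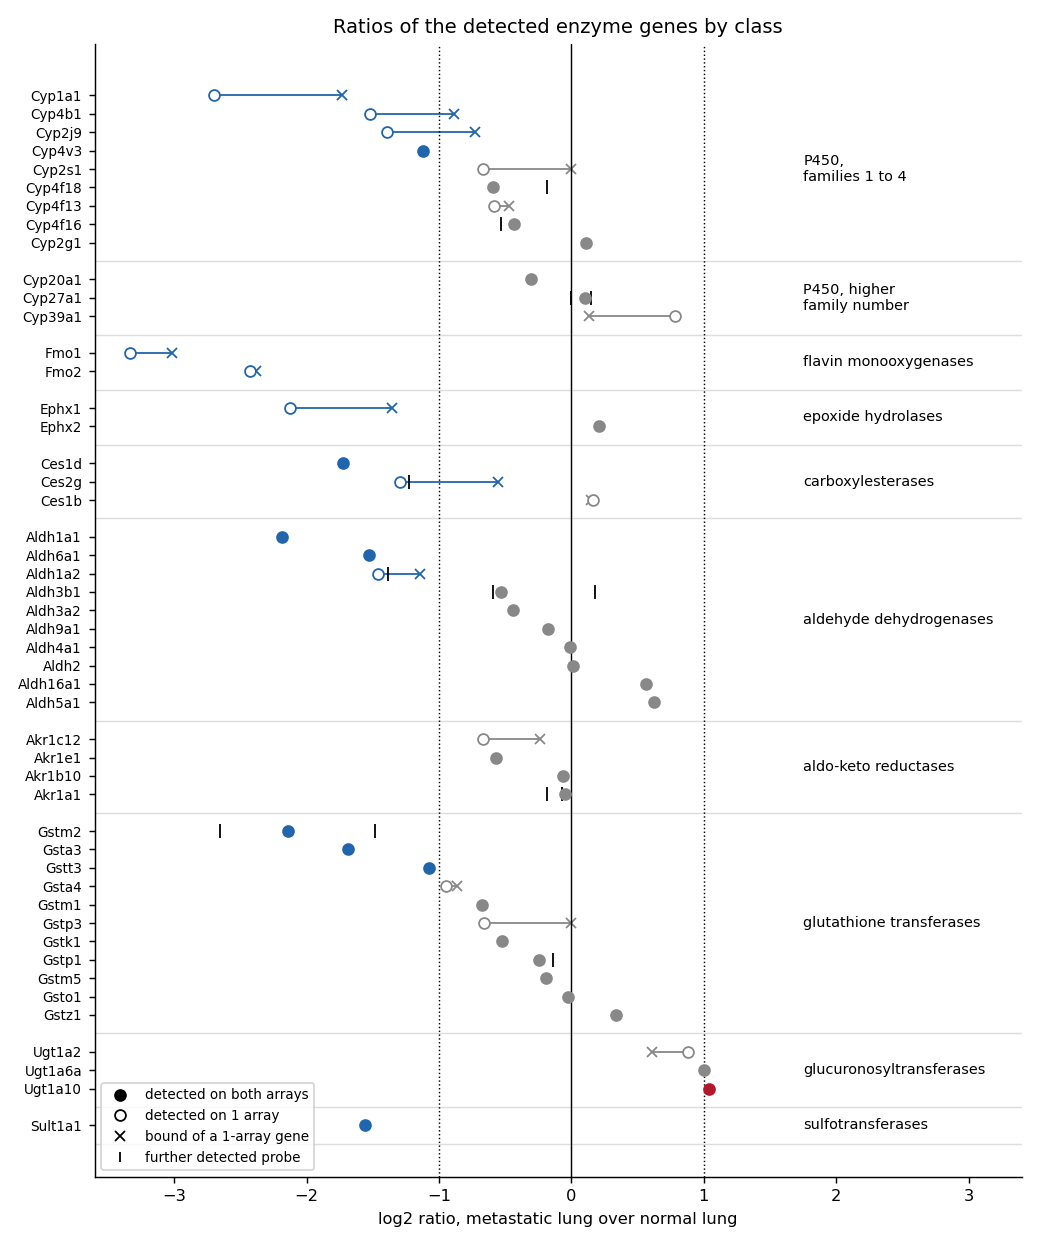
Log2 ratio of metastatic over normal lung (horizontal axis) of the 48 detected enzyme genes, by class. Filled circles are genes detected on both arrays, open circles genes detected on 1 array with a line to their bound (cross), short bars further detected probes of the gene, and dotted lines 2-fold: blue marks the 16 lower genes and red Ugt1a10.

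Glutathione transferases couple glutathione to electrophiles, and they were the class with the most detected genes, 11 of 21. Of the 11, 10 had a log2 ratio below 0, 3 were at least 2-fold lower and none at least 2-fold higher, and the median was -0.66. Over all detected genes, 3979 of 8128 had a ratio below 0, and the median was 0.01. Of these genes, 10.2% were at least 2-fold lower and 5.89% at least 2-fold higher. Gsta4 and Gstp3 entered through the normal-lung array only, and of the 9 genes of the class detected on both arrays, 8 were below 0. Gstm2, of the mu class, was read by 3 probes that were all detected on both arrays. The brightest had 156 in metastatic-lung cells and 549 in normal-lung cells (log2 ratio -2.14, 4.41-fold lower). The others had 105 in metastatic-lung cells and 460 in normal-lung cells (6.30-fold lower) and 90.4 and 194 in the same order (2.79-fold lower). All 3 probes were more than 2-fold lower in metastatic-lung cells, and their spread of 1.17 on the log2 scale was the widest of any enzyme gene with several probes detected on both arrays.

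Gsta3, of the alpha class, had 114 in metastatic-lung cells and 289 in normal-lung cells, with a log2 ratio of -1.69 (3.22-fold lower), and a further probe was detected on neither array. Gstt3, of the theta class, had 186 in metastatic-lung cells and 350 in normal-lung cells (-1.08, 2.11-fold lower). Gsta4, which conjugates the lipid peroxidation product hydroxynonenal, had 75.8 in metastatic-lung cells and 119 in normal-lung cells, was detected in normal lung only and had a bound of 1.82-fold lower. Gstm1, the direct neighbour of Gstm2, had 111 in metastatic-lung cells and 163 in normal-lung cells (-0.67), and Gstm5, of the same cluster, had 135 and 157 in the same order (-0.19). The cluster thus spanned log2 ratios from -2.14 to -0.19, although mu-class genes are near copies and the split of their signal between probes is uncertain.

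Gstk1, the mitochondrial and peroxisomal kappa enzyme, had 259 in metastatic-lung cells and 350 in normal-lung cells (-0.52). Gstp1, of the pi class, had 214 in metastatic-lung cells and 248 in normal-lung cells (-0.24), with a further probe at -0.14, and Gstp3, a close copy, was detected in normal lung only. Gsto1, which also reduces dehydroascorbate, had 399 in metastatic-lung cells and 397 in normal-lung cells (-0.03). Gstz1, the maleylacetoacetate isomerase of tyrosine breakdown, was alone above 0 among the detected genes of the class, with 108 in metastatic-lung cells and 101 in normal-lung cells (0.34).

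UDP-glucuronosyltransferases attach glucuronic acid to bilirubin, hormones and drugs. All 3 Ugt1 genes on the array were detected and all 3 had a ratio above 0, while none of the 10 Ugt2 genes was detected on either array. Ugt1a10 had 341 in metastatic-lung cells and 188 in normal-lung cells, a log2 ratio of 1.04 (2.05-fold higher). Ugt1a6a, which glucuronidates simple phenols, had 916 in metastatic-lung cells and 454 in normal-lung cells and lay at the 2-fold line, with a log2 ratio of 0.997 and 1.996-fold, and its other probes were detected on neither array. Ugt1a2 had 94.6 in metastatic-lung cells and 74.9 in normal-lung cells, was detected in metastatic lung only and had a bound of 1.53-fold higher. The Ugt1a transcripts differ in their first exon and share the rest, so that probes named for different members may read the same transcripts, and these 3 values may not be separate measurements. No sequence of the probes was used here to settle this.

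Of 6 Sult1 sulfotransferase genes, only Sult1a1 was detected. Sult1a1, the phenol sulfotransferase, had 106 in metastatic-lung cells and 243 in normal-lung cells, a log2 ratio of -1.56 (2.95-fold lower). It was detected on both arrays, with a single probe.

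Genes that regulate or serve these enzymes were read from 7 lists. Over 86 listed partner genes, 75 were on the array and 50 were detected, of which 5 were at least 2-fold lower and 7 at least 2-fold higher in metastatic-lung cells, against the same backgrounds of 10.2% and 5.89%. Among 12 detected regulators, 2 were at least 2-fold higher and none lower. Ahr, the aryl hydrocarbon receptor, had 217 in metastatic-lung cells and 131 in normal-lung cells (log2 ratio 1.05, 2.07-fold higher), the opposite direction to Cyp1a1. Hif1a, the hypoxia-inducible factor that shares the receptor's partner Arnt, had 497 in metastatic-lung cells and 194 in normal-lung cells (1.57, 2.98-fold higher). Nfe2l2, the main activator of antioxidant genes, had 682 in metastatic-lung cells and 447 in normal-lung cells (0.57). The xenobiotic receptors of liver, Nr1i2 and Nr1i3, were detected on neither array.

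The largest ratio among the partner genes detected on both arrays and higher in metastatic-lung cells was in the supply of glutathione. Slc7a11, which imports cystine for glutathione synthesis, had 1551 in metastatic-lung cells and 391 in normal-lung cells (log2 ratio 2.03, 4.08-fold higher). It was the only one of the 8 detected genes of glutathione supply and membrane-bound transferases past 2-fold, and the median of these 8 was 0.43. Among 10 other detected oxidoreductases, Hmox1, heme oxygenase, had 395 in metastatic-lung cells and 152 in normal-lung cells (1.71, 3.26-fold higher). Cbr3, a carbonyl reductase, had 361 in metastatic-lung cells and 189 in normal-lung cells (1.12, 2.17-fold higher). Adh1, an alcohol dehydrogenase that also oxidises retinol, had 69.1 in metastatic-lung cells and 126 in normal-lung cells, with a measured log2 ratio of -1.35 and a bound of at least 1.99-fold lower. Nqo1, a quinone reductase, had 66.5 in metastatic-lung cells and 63.1 in normal-lung cells and was detected on neither array.

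Of the 5 detected electron donors of the P450 system, Cyb5r3, cytochrome b5 reductase, had 167 in metastatic-lung cells and 348 in normal-lung cells (log2 ratio -1.26, 2.40-fold lower). The other 4 were within 2-fold, and Por, the main P450 reductase, was not measured by a named probe. Among 7 other detected conjugation genes, Inmt, an N-methyltransferase that is abundant in lung, had 187 in metastatic-lung cells and 889 in normal-lung cells (-2.57, 5.95-fold lower). Of 4 detected efflux pumps, Abcb1b had 120 in metastatic-lung cells and 78.3 in normal-lung cells and was at least 2.20-fold higher, and Abcg2 had 68.9 in metastatic-lung cells and 110 in normal-lung cells, with a measured log2 ratio of -1.04 and a bound of at least 1.59-fold lower. Of 4 detected genes of retinoid handling, Rdh11, a retinal reductase, had 285 in metastatic-lung cells and 157 in normal-lung cells (1.13, 2.19-fold higher), and Lrat, which stores retinol as ester, had 56.7 in metastatic-lung cells and 111 in normal-lung cells, with a measured log2 ratio of -1.55 and a bound of at least 1.63-fold lower.

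**Figure D4:**
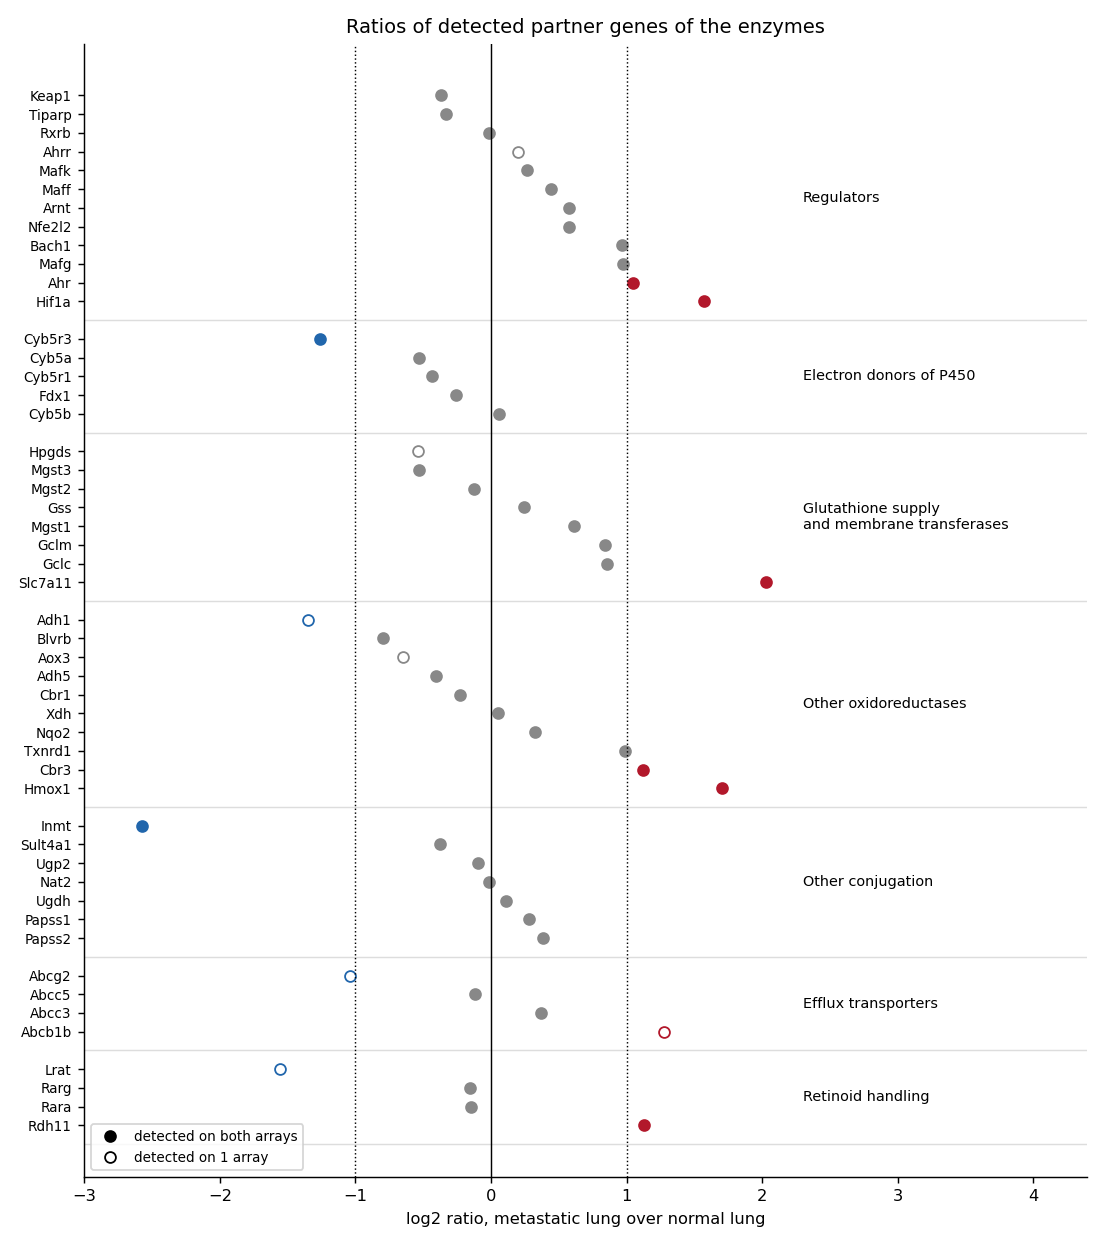
Log2 ratio of metastatic over normal lung (horizontal axis) of the 50 detected partner genes, by list. Filled circles are genes detected on both arrays, open circles on 1 array at their measured ratio, blue and red mark the 5 lower and 7 higher genes, and dotted lines mark 2-fold.

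Markers of several cell types were also lower on the metastatic-lung array, and their counts stand against the same backgrounds of 10.2% for lower and 5.89% for higher genes. Of 7 detected fibroblast markers, all 7 were at least 2-fold lower in metastatic-lung cells, and the summed signal above background of the 11 on the array was 481 in metastatic-lung cells and 2495 in normal-lung cells. Col1a2 and Dcn entered through the normal-lung array only, and the Dcn bound was under 2-fold. Pdgfrb, Col1a1, Lum and Tcf21 were detected on neither array, although the sorted cells are labelled stromal. Of 9 detected endothelial markers, 8 were lower, with a sum of 403 in metastatic-lung cells and 3566 in normal-lung cells, and Cdh5 and Tie1 were detected on neither array. Kdr, Emcn and Plvap entered through the normal-lung array only, and the 6 endothelial markers detected on both arrays were all lower. All 8 alveolar macrophage markers on the array were lower, with sums of 1663 in metastatic-lung cells and 8761 in normal-lung cells. Of these, Car4 and Krt79 were detected in normal lung only, and the Krt79 bound was 1.73-fold.

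Airway and alveolar epithelium, the lung cells in which these enzymes are best known, were also represented. Of 6 club cell and airway markers, all detected, 3 were lower, with sums of 1878 in metastatic-lung cells and 3897 in normal-lung cells. The lower ones were Scgb3a1, Cyp2f2, which was left out of the enzyme genes, and Bpifa1. Bpifa1 entered through the normal-lung array only, with a bound of 3.61-fold, and Foxj1 was detected in metastatic lung only. Most of both sums came from Scgb1a1, which was under 2-fold (-0.70). Of 7 detected alveolar epithelial markers, 4 were lower, with sums of 1794 in metastatic-lung cells and 3960 in normal-lung cells, and Sftpb and Lamp3 were detected on neither array. Of 12 neutrophil and precursor markers, 9 were at least 2-fold higher, with sums of 8677 in metastatic-lung cells and 4224 in normal-lung cells. Mpo, Elane, Prtn3 and Ctsg among the 9 were detected in metastatic lung only, and the other 3 of the 12 were within 2-fold, with log2 ratios of -0.85 for S100a9, -0.23 for Cxcr2 and 0.10 for Csf3r. Of 4 detected carcinoma markers, 1 was lower and none higher, with sums of 1295 in metastatic-lung cells and 2259 in normal-lung cells. Most of both sums came from Cdh1, with signals of 1326 and 2144 in the same order (-0.82). The lower one, Krt19, was detected in normal lung only, with a bound of 1.61-fold. Krt8 stood at 0.09, and Krt18, detected in metastatic lung only, at 0.48. None of 4 hepatocyte markers was detected. Of 2 erythroid markers on the array, Alas2 was detected on neither array. Hba-a1 was detected in normal lung only, with a measured log2 ratio of -1.75 and a bound of 1.69-fold lower. The part of these cell types in the enzyme values was not tested.

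**Figure D5:**
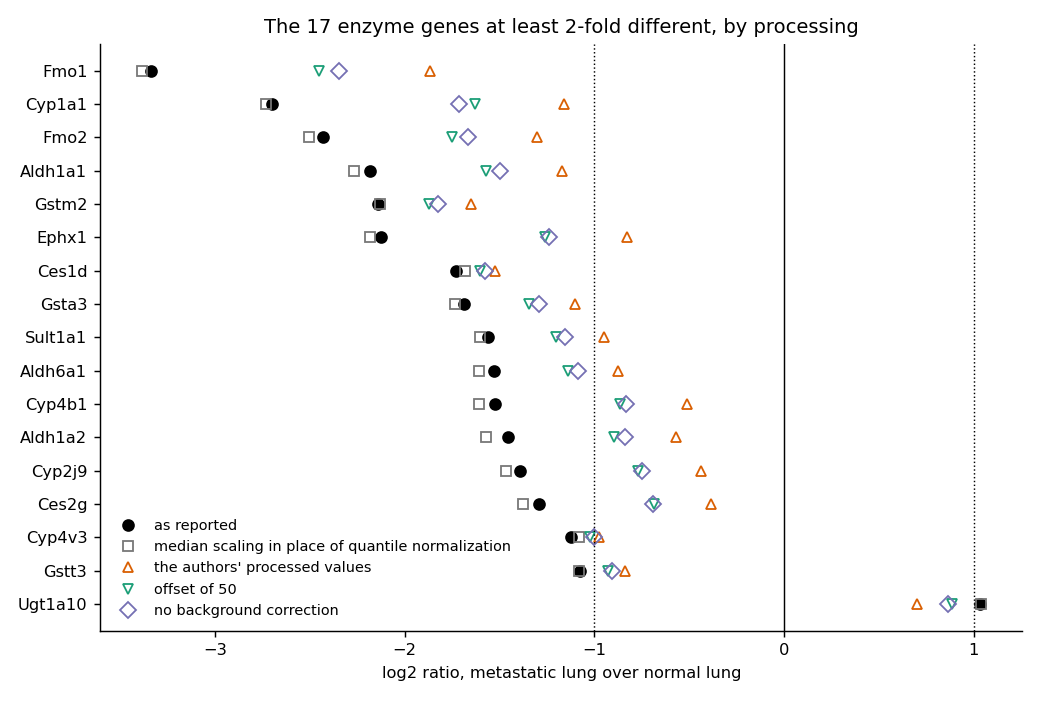
Log2 ratio of metastatic over normal lung (horizontal axis) of the 17 enzyme genes at least 2-fold different, at their measured ratios, under the processing of the report and 4 alternatives. All 17 keep their side of 0, and 7 of them stay at least 2-fold different in the authors' processed values with 16 added, marked by upright triangles.

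The size of these ratios depended on how the background was treated, while their direction did not in the alternatives tried. The authors' processed values were a straight-line rescaling of the deposited signals, and an offset of 16 was added to them here before log2. On that scale, 7 of the 16 lower genes were still at least 2-fold lower: Fmo1, Fmo2, Cyp1a1, Aldh1a1, Gstm2, Ces1d and Gsta3. For Cyp1a1 this rests on a measured 2.23-fold against a metastatic-lung signal at background, and its bound there was under 2-fold. With the same 16 added, Aldh1a1 was 2.25-fold, Aldh6a1 1.83-fold and Sult1a1 1.93-fold lower, and the Aldh1a2 bound was 1.39-fold. All 17 genes kept their sign, and Ugt1a10 was 1.63-fold higher. The added 16 makes these folds smaller, and neither folds nor counts without it were computed.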

How the data were processed

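Total RNA of sorted cells was extracted with a micro-scale kit, amplified and labelled with biotin, and hybridised to 2 Illumina mouse bead arrays, per the labels' protocols. The authors deposited a non-normalized intensity for each probe, with a detection p-value beside it per the file headers, and a separate table of processed intensity values. The submitters' processing notes name BeadStudio, with no version. The processed columns were straight-line rescalings of the non-normalized ones (slope 0.942 and constant 33.8 for metastatic lung, 1.08 and 9.31 for normal lung). Their scale is therefore linear and not centred, with medians of 96.0 and 87.2, and the method behind them is unknown.

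The non-normalized values were background-corrected from the detection p-values, given an offset of 16, quantile-normalized and taken to log2 (neqc, limma 3.58.1, R 4.3.3; Python 3.11.15 with numpy 2.4.6, pandas 2.3.3 and matplotlib 3.10.9). This offset makes the ratios of dim genes smaller. The same 16 was added to the authors' processed values before they were taken to log2. The platform annotation of 2016 gave the probes their gene symbols, which were brought up to RefSeq GRCm38.p6: 23978 of 25697 probes had 1 symbol, 0 several and 1719 none. The probe with the highest mean normalized value stands for its gene. Higher and lower mean a log2 ratio of at least 1, with detection on the metastatic-lung array, or of -1 or less, with detection on the normal-lung array. Bounds use the lowest detected log2 value of the dim array, 5.36 for metastatic and 5.25 for normal lung. The background correction, normalization and 2-fold rule were tried on simulated arrays, with known changes in brighter probes only. Changes in dim genes, the bounds and the authors' processed values were not part of that test.

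Every enzyme gene past 2-fold and the 4 brightest detected genes of each class were to be named, as were the partner genes past 2-fold and Ahr, Nfe2l2, Por, Nqo1 and Cyb5r3. The other detected enzyme genes are given with values so that each is accounted for, a choice made after their values were seen, as was naming further listed genes that were detected on neither array. The enzymes and the lists were chosen with earlier results of these data known. Marker sums take signal above background over all genes of a list on the array. Inmt stands both in a partner list and in the fibroblast list, and Krt8 both in the airway and in the carcinoma list. Alternatives were median scaling, the authors' processed values, an offset of 50, no background correction, other detection filters, a mean over probes, bounds, and a stricter reading of the P450 symbols.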

Additional observations from a re-analysis of the deposited data

How the results depend on the processing

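Of the settings tried, the treatment of background and the detection filter moved the counts and the median of the enzyme genes most. In the authors' processed values with 16 added, 7 enzyme genes were at least 2-fold lower and 0 at least 2-fold higher, with a median log2 ratio of -0.29. With an offset of 50 and with no background correction, 0 were at least 2-fold higher, and with median scaling 2 were. Restricted to genes detected on both arrays, 8 were at least 2-fold lower and the median was -0.27, and with no filter on detection the median was -0.037. The count of lower genes lay between 11 and 17 under every other setting. No called gene changed sign, and all genes detected on both arrays had a median between 0.01 and 0.07 under every setting. A constant in the signals pulls the ratios of dim genes towards 0 by construction. This holds for the constant left in the authors' values and for the 16 added to them here. Genes with signals near background, such as Cyp4b1, Cyp2j9 and Ces2g, are limited by such constants. Their bounds were under 2-fold, as were those of Cyp1a1, Ephx1 and Aldh1a2 in the authors' values with 16 added. No paired analysis was possible because each group has 1 array, and for the same reason no replicate could be left out.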
